A study of Mus musculus with 2 samples.

Results

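Igfbp4 and Dapl1 are 2 of the 31017 gene symbols measured in splenic CD8 T cells, and both are used as transcripts of the naive pool. They were chosen by earlier results of these same data, in which one was higher and the other lower in the cells of an old mouse than in transferred young cells. The difference between the libraries is therefore a description here and not a finding. What the choice did not use is whether single cells hold both transcripts, and which other genes go with each of them.

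The study transferred total CD8 T cells of CD45.1 C57BL/6J mice aged 3 months into CD45.2 C57BL/6J hosts aged 24 months, all of wt genotype. The spleen was taken 1 month later, when the host was 25 months old, and CD3e+CD8a+ cells were sorted by flow cytometry on the CD45 allele. The old recipient library holds the host's own CD45.2+ cells, and the young donor library holds the transferred CD45.1+ cells from an aged spleen. There was 1 library per group, and the labels do not say whether a library came from 1 mouse or from several, so no test between groups was possible. Age, CD45 allele, transfer and library cannot be told apart in this design.

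After filters the recipient library kept 5341 of 6174 barcodes at a median of 7027 UMIs (unique molecular identifiers, each standing for 1 captured transcript), and the donor library kept 7451 of 8588 at a median of 7887. The sort held up in the counts, since Cd3e was found in 99.0% and 99.3% of kept cells and Cd8b1 in 94.8% and 98.3%. Cd4 was found in 0 recipient cells and 0.0268% of donor cells, and Cd79a of B cells in 0.225% and 0.0805%. The libraries shared 105 barcodes, and both gene ratios moved by less than their counting intervals without them.

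Igfbp4 encodes a secreted protein that binds insulin-like growth factors and keeps them from their receptor until the protease Pappa cleaves it. Dapl1 encodes a small relative of the death-associated protein Dap, a family known to hold ribosomes idle together with eIF5A, and in CD8 T cells Dapl1 has been linked to restraint of NFAT signalling. Naive CD8 T cells circulate with high Ccr7 and Lef1, and cells that pass to a memory state gain Ccl5, Cxcr3 and Il2rb. A level below is given in CPM, the counts of a gene scaled to the same total of UMIs for each set of cells, with an exact 95% Poisson interval in brackets. Levels are compared for 1 gene at a time, since counts taken at the 5' end are not scaled to let 2 genes be compared. All intervals cover counting error only and not the spread between mice.

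Both genes lie on the plus strand of autosomes, Igfbp4 (ENSMUSG00000017493) on chromosome 11 from 99041244 to 99054392 and Dapl1 (ENSMUSG00000026989) on chromosome 2 from 59484653 to 59505020, in GRCm38. Neither is on the chromosome of the CD45 locus. The 120 bases before each start, from RefSeq on GRCm38.p6 and on the plus strand, are shown because a short motif stands at nearly the same place in both. Capitals mark TATAAA, and the windows are chr11:99041124-99041243 and chr2:59484533-59484652.
Igfbp4: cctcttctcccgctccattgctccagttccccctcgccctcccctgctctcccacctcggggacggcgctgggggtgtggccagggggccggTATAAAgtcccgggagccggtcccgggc
Dapl1: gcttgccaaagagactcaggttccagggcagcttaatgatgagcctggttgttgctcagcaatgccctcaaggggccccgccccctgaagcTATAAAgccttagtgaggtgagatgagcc

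The motif TATAAA, searched on both strands, was found 1 time in each promoter, on the gene's own strand. Its first base stood at position -28 from the start of Igfbp4 and at -29 from that of Dapl1. Of 32851 promoters of the same length (300 bases, 250 of them before the start), 13.6% held the letters on either strand and 1.99% held them on the gene's strand wholly between 40 and 16 bases before the start. In base makeup the 2 promoters differed, with 71.3% G or C and 27 CpG for Igfbp4 against 51% and 5 for Dapl1, where the medians over all promoters were 52.7% and 7. These matches describe letters and not use.

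Over all kept cells Igfbp4 was higher in the old recipient library and Dapl1 was higher in the young donor library. Igfbp4 stood at 338 CPM [332, 344] in the recipient and 136 CPM [133, 139] in the donor, a log2 ratio of recipient over donor of 1.31 [1.27, 1.35]. Dapl1 stood at 248 CPM [243, 253] and 306 CPM [301, 310], a log2 ratio of -0.30 [-0.34, -0.26]. Of 9556 genes with at least 200 UMIs over both libraries, 2.88% were higher in the recipient by 0.5 log2 or more and 2.10% were lower by as much, and the median gene stood at 0.03. Igfbp4 ranked 39 from the highest ratio, and Dapl1 ranked 469 from the lowest and was short of 0.5. Igfbp4 was found in 43.6% of recipient cells and 25.3% of donor cells, and Dapl1 in 39.2% and 51.1%. With each cell thinned to 3500 UMIs these shares were 37.7% and 19.6% for Igfbp4 and 33.2% and 43.3% for Dapl1.

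The libraries differed in how many cells with little Ccl5 they held. Cells with 3 or fewer UMIs of Ccl5, a chemokine that memory CD8 T cells make in large amounts, are called low Ccl5 cells here. They made up 51.9% of the recipient library (2774 cells) and 29.1% of the donor library (2166 cells). In these cells Igfbp4 stood at 562 CPM [552, 572] in the recipient and 402 CPM [393, 411] in the donor, and the log2 ratio was 0.48 [0.44, 0.53]. Dapl1 stood at 346 CPM [338, 354] and 538 CPM [527, 549], with a log2 ratio of -0.64 [-0.68, -0.59]. So the gap in Igfbp4 was smaller within low Ccl5 cells than over all cells, and the gap in Dapl1 was larger. In cells with more than 3 Ccl5 UMIs, Igfbp4 stood at 53.9 and 24.7 CPM, a log2 ratio of 1.12 [0.99, 1.25]. Dapl1 stood there at 124 and 208 CPM, a log2 ratio of -0.75 [-0.82, -0.68]. Whether the mix of cells takes part in the values over all cells was not tested. Among 8038 genes compared in low Ccl5 cells, 1.11% were higher in the recipient by 0.5 or more and 1.34% were lower by as much. Dapl1 was past that fold and ranked 64 from the lowest, while Igfbp4 fell just short of it and ranked 99 from the highest.

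The 10 cell groups below are ranges of marker UMIs that use neither gene, taken in a fixed order in which a cell joins the first group it meets. Igfbp4 was highest in low Ccl5 cells with a UMI of Ccr9, the receptor for the gut chemokine Ccl25, or of Itgae, the integrin chain that binds E-cadherin. In that group it stood at 714 CPM [694, 734] in the recipient and 710 CPM [681, 741] in the donor. The log2 ratio was 0.01 [-0.07, 0.08], so here the 2 libraries differed by less than the counting error. Dapl1 in the same cells stood at 246 CPM [235, 258] and 492 CPM [468, 518], a log2 ratio of -1.0 [-1.10, -0.90]. The Ccr9 or Itgae group was thus the one low Ccl5 group with a gap in Dapl1 and none measured in Igfbp4. It also differed in size, with 898 recipient cells (16.8% of the library) and 375 donor cells (5.03%).

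Dapl1 was highest in low Ccl5 cells with 3 or more UMIs of Ly6c2, a surface antigen that memory CD8 T cells carry. It stood there at 470 CPM [454, 486] in the recipient and 573 CPM [557, 588] in the donor, a log2 ratio of -0.29 [-0.35, -0.22]. Igfbp4 stood at 417 CPM [402, 433] and 289 CPM [278, 300], a log2 ratio of 0.53 [0.45, 0.61]. In the low Ccl5 cells with neither set of markers, Igfbp4 stood at 581 and 456 CPM and Dapl1 at 324 and 487 CPM. Their log2 ratios there were 0.35 [0.27, 0.43] and -0.59 [-0.67, -0.50]. The opposite direction of the 2 genes was therefore present within 2 of the 3 low Ccl5 groups for both genes and within all 3 for Dapl1.

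**Figure D1:**
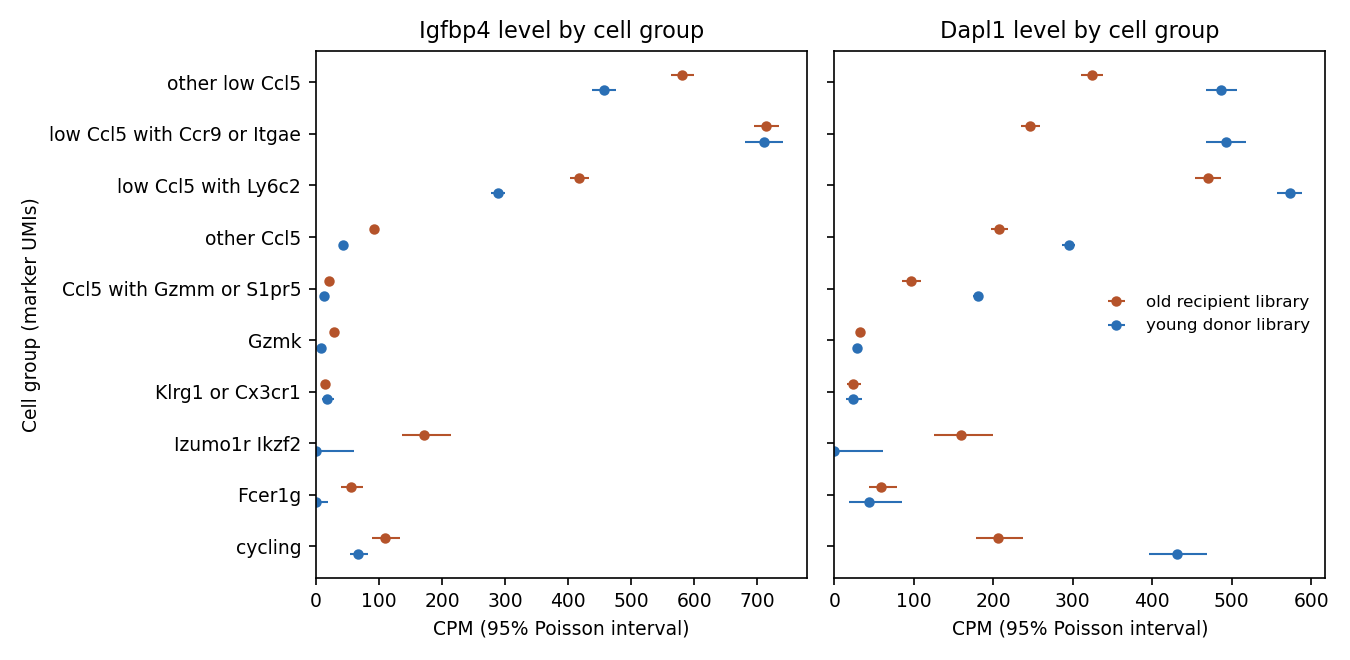
Level of Igfbp4 (left) and Dapl1 (right) in 10 cell groups, in CPM with 95% Poisson intervals, for the old recipient library and the young donor library. Igfbp4 is at 92.9 CPM or less in the Ccl5, Gzmk and Klrg1 or Cx3cr1 groups, while Dapl1 stays at 208 and 295 CPM in the other Ccl5 cells; the Fcer1g and Izumo1r Ikzf2 groups hold 12 to 111 cells a library.

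Of all Igfbp4 transcripts counted, 93.0% came from low Ccl5 cells in the recipient and 87.2% in the donor. For Dapl1 these shares were 78.0% and 52.1%. A larger share of Dapl1 than of Igfbp4 thus came from cells with Ccl5, above all in the donor. In Ccl5 cells without markers of the other groups, Igfbp4 stood at 92.9 and 43.5 CPM and Dapl1 at 208 and 295 CPM. In Ccl5 cells with Gzmm, a granzyme, or S1pr5, a receptor for egress, Igfbp4 stood at 20.8 and 12.3 CPM and Dapl1 at 96.3 and 181 CPM. Cycling cells held Dapl1 at 206 CPM [178, 238] in 72 recipient cells and 431 CPM [396, 469] in 96 donor cells.

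Cells with Gzmk, a granzyme of age-associated CD8 T cells, and cells with effector markers were used as cells that should hold little of either transcript. At median depths of 4495 and 4431.5 UMIs, Igfbp4 was found in 3.05% and 1.03% of the Gzmk cells and Dapl1 in 5.59% and 4.93%. Cells with Klrg1 or Cx3cr1, markers of effector memory, had Igfbp4 in 4.89% and 0.503% and Dapl1 in 4.14% and 4.52%, at median depths of 4381 and 4326. These shares lie far below the 73.2% and 68.6% for Igfbp4 and the 55.1% and 79.0% for Dapl1 in low Ccl5 cells, at medians of 7583.5 and 7954. Igfbp4 stood at 28.2 CPM [23.1, 34.0] and 8.82 CPM [6.21, 12.2] in the Gzmk cells and at 15.1 [9.21, 23.3] and 17.7 [10.3, 28.4] in the Klrg1 or Cx3cr1 cells. In the recipient Gzmk cells it came from 24 cells, with between 1 and 20 UMIs each. In the donor Klrg1 or Cx3cr1 cells all 17 Igfbp4 UMIs came from 1 cell, so that interval describes no level of the group. Whether free RNA gives these counts was not tested.

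The order along Ccl5 was the same in both libraries, with Igfbp4 lower from the first Ccl5 UMIs on and Dapl1 holding its level for longer. Igfbp4 in the recipient stood at 600 CPM with no Ccl5 UMI, 493 with 1 to 3, 262 with 4 to 10, 76.7 with 11 to 30 and 23.4 with 31 or more. The donor values of Igfbp4 were 443, 304, 126, 55.7 and 11.4 CPM. Dapl1 in the recipient stood at 336, 365, 326, 252 and 76.8 CPM over the same classes, and in the donor at 542, 530, 510, 384 and 155. At the limit itself, cells with exactly 3 Ccl5 UMIs held Igfbp4 at 403 and 145 CPM and Dapl1 at 383 and 426. Cells with 4 held Igfbp4 at 346 and 176 CPM and Dapl1 at 341 and 529, from 53 to 89 cells per value.

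**Figure D2:**
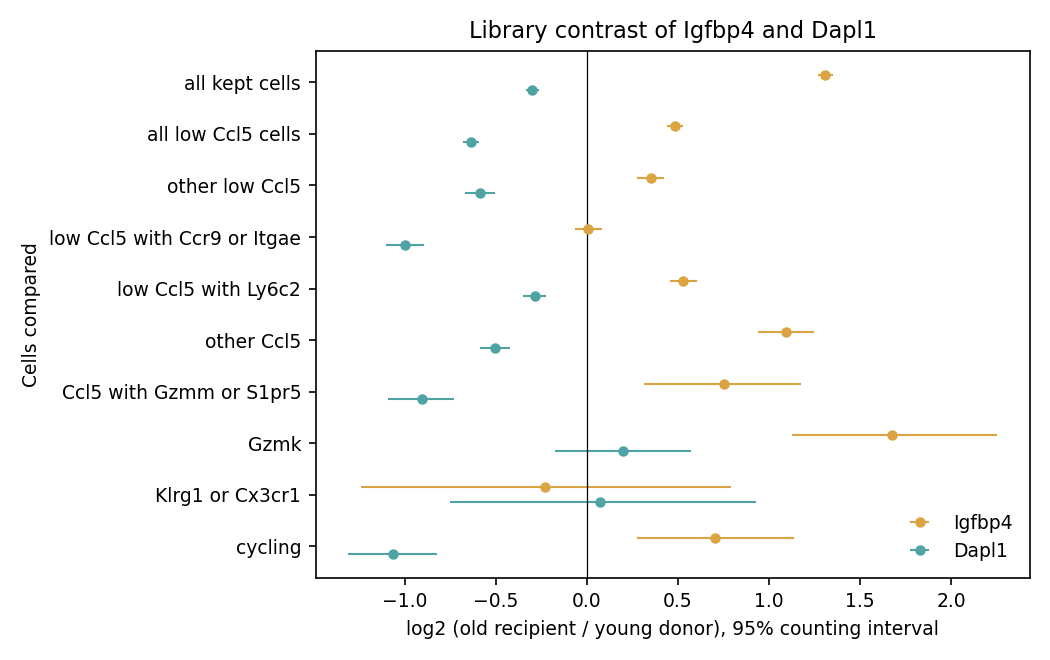
Log2 ratio of the old recipient over the young donor level for Igfbp4 and Dapl1 in all kept cells, in low Ccl5 cells and in 8 cell groups, with 95% counting intervals and a line at 0. Igfbp4 lies at 1.31 over all cells and at 0.01 in the low Ccl5 cells with Ccr9 or Itgae, where Dapl1 lies at -1.0.

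Although the 2 genes differed in opposite directions between the libraries, they did not exclude each other within cells. Of the low Ccl5 cells of the recipient, 42.9% [41.0, 44.7] held UMIs of both, 30.4% of Igfbp4 only, 12.3% of Dapl1 only and 14.5% of neither (exact binomial intervals). In the donor the shares were 55.4% [53.3, 57.6], 13.1%, 23.6% and 7.85%. If the 2 detections were unrelated, the shares with both would be 40.4% and 54.2%. Dapl1 was found in 58.5% of the recipient cells with Igfbp4 and 45.8% of those without, and in 80.9% and 75.0% of the donor cells. Cells with both were also the deepest, with medians of 8260 and 8265 UMIs against 5593 and 6305.5 for cells with neither.

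With every cell thinned to 3500 UMIs, leaving out 107 recipient and 54 donor cells that were too shallow, the link was smaller. Cells with both made up 29.5% in the recipient, against 28.2% if unrelated, and 37.3% in the donor, against 37.4%. The odds ratio between the 2 detections moved from 1.67 to 1.27 in the recipient and from 1.41 to 0.97 in the donor. Dapl1 was then found in 47.6% of recipient cells with Igfbp4 and 41.8% of those without, and in 67.7% and 68.2% of donor cells. The word opposite therefore describes the contrast between libraries and not joint detection in cells. At equal depth both transcripts were found together about as often as their separate shares give in the donor, and slightly more often in the recipient. The recipient share of 41.8% without Igfbp4 had an interval of [38.7, 44.9], which lies below the 47.6% with it. From the lowest to the highest Ly6c2 class, given further below, the 2 levels did go in opposite directions within each library, though in the recipient both rose at the first step. Over all kept cells, where both genes are concentrated in the low Ccl5 pool, the unthinned odds ratios were 4.66 and 6.45.

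**Figure D3:**
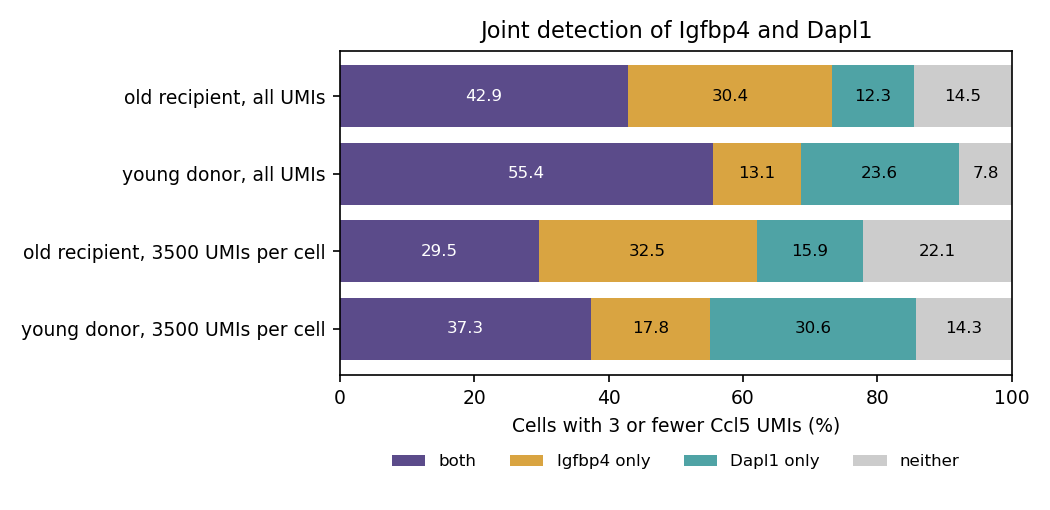
Percent of low Ccl5 cells with UMIs of both genes, of Igfbp4 only, of Dapl1 only and of neither, in each library, with all UMIs and with 3500 UMIs per cell. Igfbp4-only cells are 30.4% of the recipient and 13.1% of the donor bar, and Dapl1-only cells 12.3% and 23.6%.

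In the donor the amount of one transcript likewise changed little with the amount of the other, while the recipient held some rise. In the recipient, Dapl1 stood at 304 CPM in cells with no Igfbp4 UMI and between 319 and 372 in the 5 classes with 1 or more. In the donor it stood between 495 and 570 CPM over all 6 classes, with 524 in cells with no Igfbp4. Igfbp4 ranged from 501 to 599 CPM over the 6 Dapl1 classes of the recipient and from 360 to 425 in the donor. With cells thinned to 3500 UMIs, recipient Dapl1 stood at 295 CPM [277, 313] with no Igfbp4 UMI and 383 [356, 411] with 3 to 5. With 11 or more it stood at 229 [146, 340], from 30 cells. Donor Dapl1 stood at 525 CPM with no Igfbp4 UMI and at 525 with 3 to 5. The Pearson r between the 2 genes across low Ccl5 cells was 0.07 in the recipient (2774 cells) and 0.03 in the donor (2166 cells), which is no finding in sparse counts.

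Cells with only 1 of the 2 transcripts were then compared within each library, among low Ccl5 cells. The recipient had 842 Igfbp4-only and 340 Dapl1-only cells at medians of 7339 and 7360.5 UMIs, and the donor had 284 and 511 at medians of 7736 and 7678, so depth was close within a library. Failing to catch a transcript at this depth also makes a cell single, so both classes hold cells that express both genes. Of 4988 genes with at least 100 UMIs in each library, 0.421% (21 genes) were higher in Igfbp4-only cells and 1.46% (73 genes) in Dapl1-only cells, by a log2 ratio of 0.5 or more in both libraries. In the recipient alone 234 genes were past that fold and in the donor 292, and 2 were past it in opposite directions. The ratios are given for each library separately, with no test.

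The gene with the largest ratio toward Igfbp4-only cells was Itgae, the integrin chain named above. Itgae stood at 65.2 CPM in Igfbp4-only and 17.4 CPM in Dapl1-only cells of the recipient, and at 41.5 and 11.3 CPM in the donor. Its log2 ratios, Igfbp4-only over Dapl1-only, were 1.91 [1.46, 2.39] and 1.87 [1.34, 2.42]. Rgcc, a regulator of the cell cycle, stood at 168 and 66.3 CPM in the recipient and 150 and 52.4 CPM in the donor, with log2 ratios of 1.34 [1.11, 1.58] and 1.52 [1.26, 1.78]. Ramp1, which pairs with the receptor for the neuropeptide CGRP, had ratios of 1.09 [0.81, 1.39] and 1.30 [0.93, 1.67]. Ifngr2, a chain of the interferon gamma receptor, had 1.32 and 0.98, and Actn2, an actinin, had 1.33 and 0.90. Ccr9 had too few UMIs in the donor to be counted among these genes. Its levels were 60.4 CPM in Igfbp4-only and 16.6 CPM in Dapl1-only cells of the recipient, and 35.0 and 4.54 CPM in the donor.

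The other named genes on this side ranged between 0.63 and 1.24. They included Ncf1, a subunit of the phagocyte oxidase, Tmie, Slc16a5, Tgfbr3, a coreceptor for TGF-beta, Treml2 and Cxcr6, the receptor for Cxcl16. The smallest of the 12 was Cxcr6 at 0.63 [0.25, 1.02] and 0.73 [0.30, 1.16]. The named genes on this side had counting intervals above 0 in both libraries, but with 2 UMIs needed for detection Cxcr6, Ncf1, Slc16a5, Tmie and Treml2 were short of the fold. Slc16a5 had 0.24 in the recipient at 0 Ccl5 UMIs, and Cxcr6 had 0.41 after thinning to 3500 UMIs.

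Dapl1-only cells were higher in genes of the memory state. S100a6, a calcium-binding protein, stood at 14.3 CPM in Igfbp4-only and 117 CPM in Dapl1-only cells of the recipient and at 21.6 and 154 CPM in the donor. Its log2 ratios were -3.03 [-3.38, -2.68] and -2.83 [-3.29, -2.40], the largest in size in each library among the genes compared. Cxcr3, a chemokine receptor of memory T cells, stood at 14.2 and 85.2 CPM in the recipient and 35.9 and 140 CPM in the donor, with ratios of -2.59 [-2.96, -2.23] and -1.96 [-2.32, -1.61]. Ctla2a, which resembles a cathepsin propeptide, had -2.60 and -2.05. Ly6c2 stood at 163 and 893 CPM in the recipient and 386 and 1196 CPM in the donor, with ratios of -2.45 [-2.56, -2.34] and -1.63 [-1.74, -1.53].

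Eomes, a T-box factor of memory CD8 T cells, had ratios of -1.56 [-2.01, -1.11] and -1.89 [-2.61, -1.24]. Il2rb, the receptor chain shared by IL-2 and IL-15, had -1.01 and -1.15, and Id3, an inhibitor of E proteins, had -1.40 and -1.32. Anxa2, Itgb1, Myo1f, Dopey2 and Cenpa completed the 12, between -2.50 and -1.0. Cenpa, a histone variant of centromeres, was short of the fold in the 3 low Ccl5 groups alone, at -0.31 and -0.38. The summed cycling list stood at 8.29 and 28.5 CPM in Igfbp4-only and Dapl1-only cells of the recipient and at 17.0 and 62.8 CPM in the donor. Cells of the cycling group were few, at 0.356% and 0.588% of these classes in the recipient and 0.704% and 1.17% in the donor. Whether the summed list differed outside those few cells was not tested, so its levels describe no difference across a whole class. On this side too, all 12 had counting intervals below 0 in both libraries. These memory genes were thus higher in Dapl1-only than in Igfbp4-only cells, even though every cell compared had 3 or fewer Ccl5 UMIs. Cells with neither transcript, given further below, held more S100a6 than Dapl1-only cells. The comparison of single classes therefore does not say whether these genes go with Dapl1 or with a lack of Igfbp4.

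**Figure D4:**
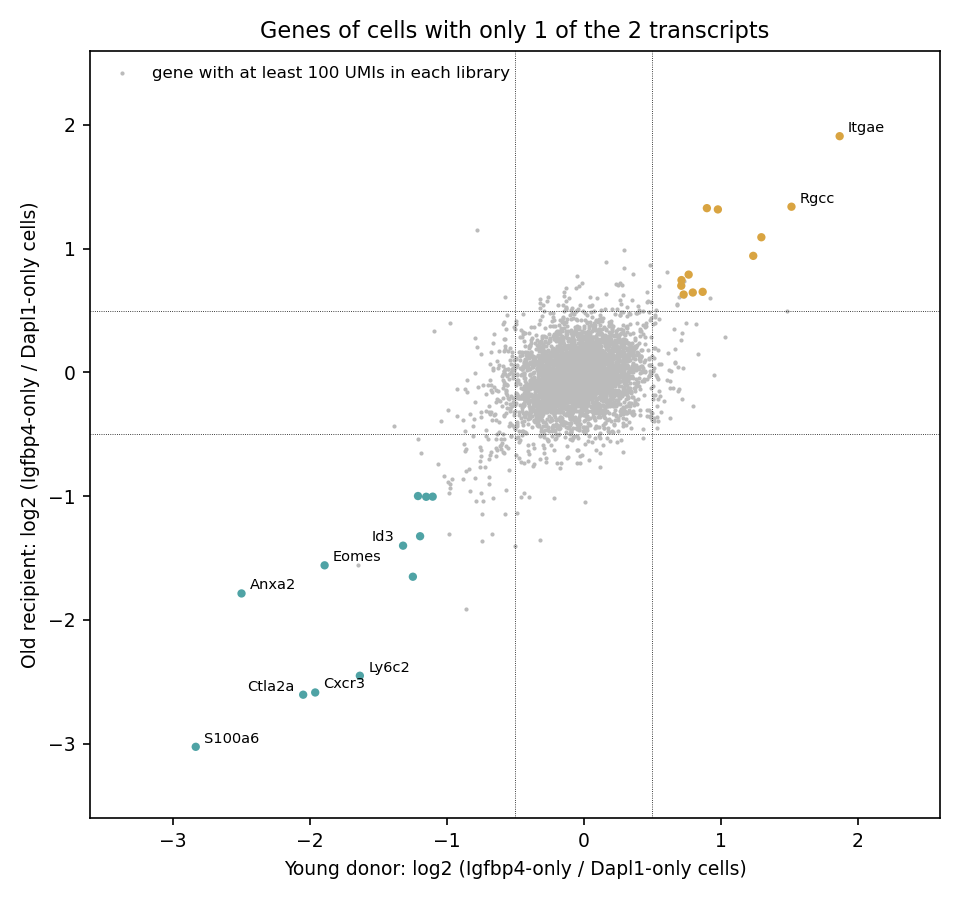
Log2 ratio of Igfbp4-only over Dapl1-only low Ccl5 cells for 4988 genes, in the young donor (horizontal axis) and the old recipient library (vertical axis), with dotted lines at 0.5 and -0.5; colours mark the 24 named genes, yellow where higher in Igfbp4-only and green where higher in Dapl1-only cells. Itgae lies farthest to the upper right at 1.87 and 1.91, and S100a6 farthest to the lower left at -2.83 and -3.03.

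The levels in cells with both transcripts were set beside those of each single class. Of the 12 named genes higher in Igfbp4-only cells, 10 had a level in cells with both that lay nearer, in both libraries, to Igfbp4-only than to Dapl1-only cells. Of the 12 higher in Dapl1-only cells, 8 also lay nearer to Igfbp4-only cells, 1 lay nearer to Dapl1-only cells, and the libraries differed for 3. S100a6 stood at 35.1 and 35.9 CPM in cells with both, far below the 117 and 154 CPM of Dapl1-only cells. Cells with neither transcript had more, at 315 and 273 CPM, but were the shallowest, at medians of 5593 and 6305.5 UMIs. Of these cells 0.248% and 7.06% were in the Gzmk group and 4.47% and 1.76% in the Izumo1r Ikzf2 group. In cells with both, S100a6, Ctla2a and Il2rb thus stood nearer to their levels in Igfbp4-only cells. This nearness has no interval, and whether depth or the mix of cells takes part was not tested. The gene nearer to Dapl1-only cells was Ly6c2, at 470 and 726 CPM in cells with both. Itgae stood at 46.7 and 33.3 CPM in cells with both, between the 2 single classes.

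**Figure D5:**
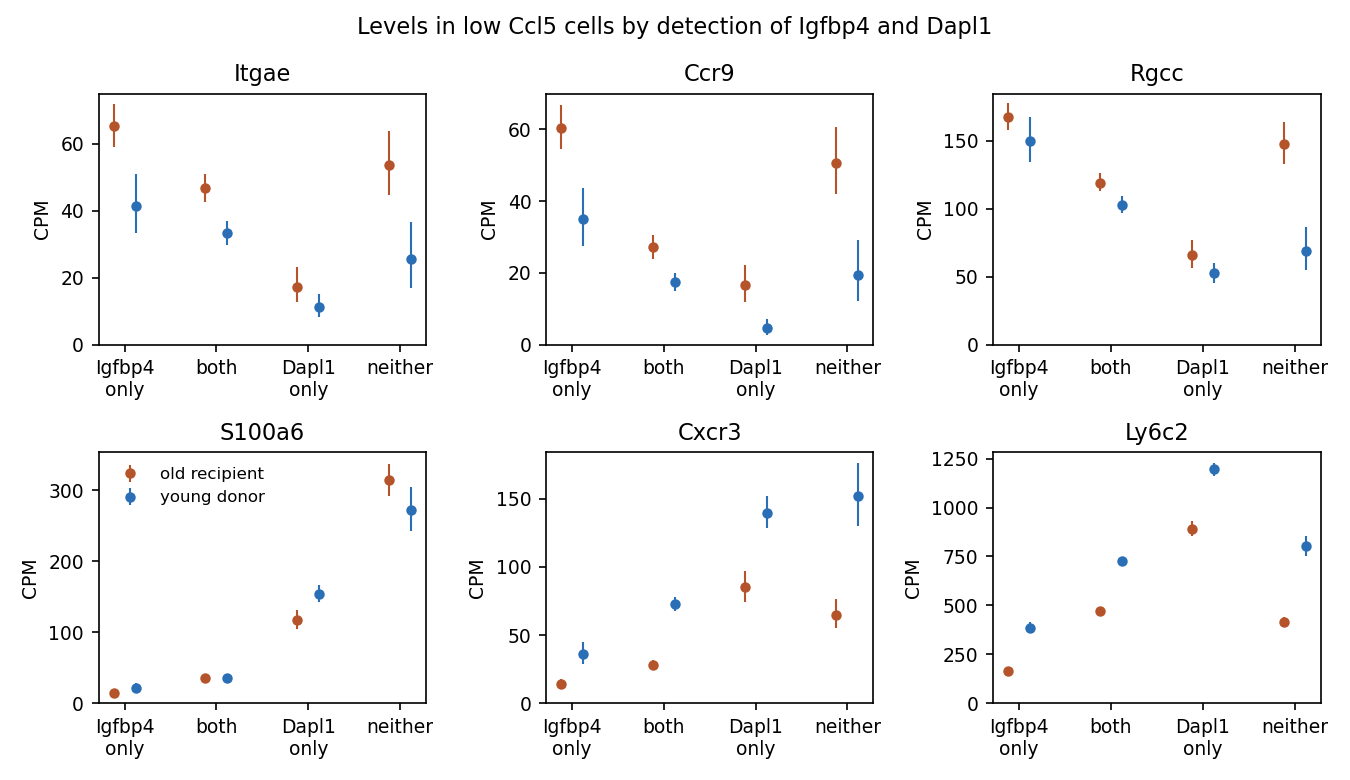
Levels of Itgae, Ccr9, Rgcc, S100a6, Cxcr3 and Ly6c2 in low Ccl5 cells with Igfbp4 only, both genes, Dapl1 only and neither, in CPM with 95% Poisson intervals, for each library. S100a6 is low wherever Igfbp4 is found, and Ly6c2 is highest in Dapl1-only cells at 893 and 1196 CPM.

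The single classes differed in which low Ccl5 group they came from. Of Igfbp4-only cells, 47.3% in the recipient and 33.1% in the donor were in the Ccr9 or Itgae group, against 12.9% and 5.09% of Dapl1-only cells. Of Dapl1-only cells, 49.1% and 68.3% were in the Ly6c2 group, against 13.1% and 25.0% of Igfbp4-only cells. The contrast was therefore repeated inside each group, a step added once these shares were known. These cells are subsets of those that chose the genes, so the values are a description and no independent support.

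Rgcc and S100a6 differed in the same direction inside all 3 groups, with counting intervals on 1 side of 0 in both libraries. Rgcc had ratios of 0.63 [0.27, 1.01] and 0.62 [0.20, 1.04] in cells without Ly6c2, Ccr9 and Itgae markers, and 1.69 [1.09, 2.32] and 0.96 in cells with Ly6c2. In Ccr9 or Itgae cells Rgcc had 0.47 [0.06, 0.92] and 0.89 [0.24, 1.61], short of the fold in the recipient. S100a6 in cells with Ly6c2 had -1.35 [-1.94, -0.79] and -1.29 [-1.81, -0.81], smaller in size than over all low Ccl5 cells. Itgae differed in cells with Ly6c2, at 2.40 [1.31, 3.65] and 2.23 [1.20, 3.26]. In the group chosen by Ccr9 or Itgae it did not differ beyond counting error, at 0.23 [-0.27, 0.78] and -0.53 [-1.18, 0.17]. Cxcr6 in that group went the other way in the donor, at -1.40 [-2.19, -0.58], with -0.17 [-0.89, 0.62] in the recipient. Ramp1 there had 0.41 [-0.15, 1.02] and 0.14 [-0.62, 0.97], with intervals that hold 0.

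Among the genes higher in Dapl1-only cells, Cxcr3 had -0.85 [-1.31, -0.41] and -0.76 [-1.18, -0.36] in cells with Ly6c2. It had -3.62 [-4.89, -2.40] and -2.43 [-3.76, -1.15] in Ccr9 or Itgae cells, on 10 to 15 UMIs a class. In cells with none of these markers Cxcr3 had -2.51 [-3.36, -1.70] and -2.62 [-3.69, -1.70]. Il2rb was short of the fold in the recipient cells with none of these markers, at -0.48 [-0.90, -0.04], beside -0.71 [-1.24, -0.18] in the donor. In Ccr9 or Itgae cells its intervals reached 0 in both libraries, as did those of Eomes. Ly6c2 inside its own group had -0.79 [-0.91, -0.68] and -0.37 [-0.48, -0.26].

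Gene lists around each member were counted whole, beside medians over all genes compared of -0.03 in the recipient and -0.04 in the donor. Of the 18 genes of the insulin-like growth factor axis, 1 had enough UMIs, Igf2r, the receptor that clears Igf2, with ratios of -0.53 and -0.49 and not past the fold in both. Igf1r, the binding proteins other than Igfbp4 and Pappa were under the UMI minimum. Of 14 NFAT pathway genes compared, 0 were past the fold in either direction, with medians of -0.13 and -0.04. Of 6 ribosome dormancy genes, 1 was past it: Dap, the relative of Dapl1, was higher in Dapl1-only cells, with ratios of -0.79 [-1.06, -0.53] and -0.86 [-1.23, -0.50]. Eif5a, its partner, had 0.03 and 0.05.

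Of 12 memory genes compared, 9 were higher in Dapl1-only cells and 0 in Igfbp4-only cells, with medians of -0.97 and -0.98. They included Ccl5 itself, at -0.90 and -0.98, although the cells were limited to 3 of its UMIs. Of 15 naive and stem-like genes, 1 was past the fold, Id3, on the Dapl1-only side, and the medians were 0.02 and 0.04. Ccr7, the lymph node homing receptor, had 0.496 [0.388, 0.606] and 0.435 [0.318, 0.553]. Lef1, a transcription factor of naive T cells, had 0.353 [0.240, 0.467] and 0.414 [0.285, 0.543]. Both were thus higher in Igfbp4-only cells beyond counting error in both libraries, though short of the fold. Of 6 gut homing and residency genes, Itgae and Cxcr6 were higher in Igfbp4-only cells, and Rgs1, a regulator of G protein signalling, was higher in Dapl1-only cells at -0.60 and -0.61.

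In 15 T cell receptor signalling genes, 2 were past the fold, Cd5 at -0.71 and -0.75 and Cd6 at -0.62 and -0.86, both inhibitory coreceptors and both higher in Dapl1-only cells. Of 12 interferon genes, Ifi27l2a was past it at -0.50 and -0.58, and of 3 Ly6 genes Ly6c2. None of the 15 quiescence, 9 immediate early and 12 MHC class I genes were past the fold. Some lists of other cell types differed between the classes. Ms4a1 of B cells had 0 UMIs in all 4 single-positive groups, and the summed B cell list stood at 226 and 241 CPM in Igfbp4-only and Dapl1-only cells of the recipient and 218 and 209 in the donor. The summed myeloid list stood at 0.797 and 3.47 CPM in Igfbp4-only and Dapl1-only cells of the recipient (5 and 9 UMIs) and 2.30 and 7.06 CPM in the donor (5 and 28 UMIs). The summed plasmacytoid dendritic cell list stood at 198 and 147 CPM and at 170 and 135 CPM. Its member Siglech had 0 UMIs in all 4 groups. Bst2 stood at 136 and 130 CPM and at 134 and 130 CPM, and Ccr9 differed as given above. The part of other cells in the ratios was not tested.

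Across low Ccl5 cells the genes most like Igfbp4, by Pearson r of log levels among 6822 genes, were Ccr7 (0.23 in the recipient and 0.21 in the donor), Npc2, Lef1, Eef1a1, Cd8b1, Actn2, Eef1b2 and Cd52. The least like it were Cxcr3 (-0.26 and -0.30), S100a6, Id3, Cd44, Ctla2a, Ms4a4b, Ccl5 and Ly6c2. The genes most like Dapl1 included Ly6c2 (0.29 and 0.19), Epsti1, Dnajc15, Ms4a4c, Plac8, Rgs10 and Tmsb10. Among the genes least like Igfbp4, Ly6c2 alone was also among those most like Dapl1. Ccr9 was the least like Dapl1, at -0.17 and -0.11. All of these r are weak, come from 2774 and 2166 cells of 1 library each, and share that library's depth.

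Levels by marker class are set out next in CPM, and Dapl1 did not mirror Igfbp4 for every marker. From 0 to 11 or more Ly6c2 UMIs, Igfbp4 went from 617 to 273 CPM in the recipient and from 559 to 227 CPM in the donor. Dapl1 went the other way between these end classes, from 255 to 477 and from 462 to 621 CPM. With 1 to 2 Ly6c2 UMIs both genes stood higher in the recipient than with 0, Igfbp4 at 702 and Dapl1 at 388 CPM. From 0 to between 3 and 5 UMIs of Ccr9 and Itgae together, Igfbp4 went from 472 to 787 CPM and from 318 to 731 CPM. Dapl1 went from 387 to 200 CPM in the recipient. In the donor Dapl1 stood at 549 CPM [536, 562] with 0 of these UMIs, 502 [480, 525] with 1 to 2 and 570 [504, 642] with 3 to 5, the last from 55 cells. From 0 to between 3 and 5 Cxcr3 UMIs, Igfbp4 went from 633 to 165 and from 518 to 149 CPM, and Dapl1 from 330 to 403 and from 505 to 568. From 0 to 11 or more S100a6 UMIs, Igfbp4 went from 601 to 33.6 and from 445 to 57.5 CPM. Dapl1 also ended lower, going from 350 to 210 and from 536 to 398 CPM, with 33 and 23 cells in the last class. From 0 to between 6 and 10 Lef1 UMIs, both genes rose in the recipient, Igfbp4 from 362 to 713 and Dapl1 from 270 to 386 CPM. The donor values went from 290 to 544 and from 530 to 556 CPM. Whether depth, free RNA or library preparation takes part in these orders was not tested.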

How the data were processed

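The 2 droplet 5' single-cell libraries gave values that were UMI counts as the authors deposited them, unnormalized. Per the file headers the software version was 3.0.2, and per the submitters' processing notes Cell Ranger, Seurat and mm10 were used. Feature symbols were placed with GENCODE M21 (30934 of 31053 features). The 2 members and all gene lists, groups and rules were chosen with earlier results of these data known. Cells with under 500 genes or over 10% mitochondrial UMIs were left out (555 and 587), as were the highest doublet scores (278 and 550), at 0.8% per 1000 barcodes. Totals after filters were 38423769 and 59044683, which makes a single UMI worth 0.0260 and 0.0169 CPM. Counts were summed per library and cell class in Python 3.11.15 (scipy 1.17.1), with exact Poisson, Poisson ratio and Clopper-Pearson intervals at 95%. With 1 library per group no test was made and no p-value computed. Groups took cells in this order: Mki67 and Top2a, Fcer1g, Izumo1r with Ikzf2, Klrg1 and Cx3cr1, Gzmk, Ccl5 above 3 with Gzmm or S1pr5, other Ccl5, then low Ccl5 with Ly6c2, with Ccr9 or Itgae, or with neither. Named genes were the 12 on each side with the largest smaller-of-both-libraries ratio, leaving out receptor segments, ribosomal, mitochondrial, sex-linked and unnamed genes, and the 8 most and least alike. A few genes that these rules name are not reported here. The comparison of single-positive cells was also run on simulated sums of counts with set folds. These sums had no spread between cells and no wrongly classed cells, so that check bears on the counting only. Alternatives changed filters, scaling, the Ccl5 limit, depth and UMI minimums.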

Additional observations from a re-analysis of the deposited data

How the results depend on the processing

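Of 59 values recomputed under another setting, 41 stayed within the counting interval of the value given (for the count of genes, within 1.5 times). The other 18 moved beyond it. Only the 28 log2 ratios among the 59 have a direction that could reverse, and 0 of them did. With edgeR's TMM scaling the log2 ratios over all kept cells were 1.26 for Igfbp4 and -0.35 for Dapl1. Within low Ccl5 cells Igfbp4 was 0.44 at 0 Ccl5 UMIs and 0.56 at 10 or fewer, and Dapl1 was -0.69 at 0. The share with both genes was 29.5% and 37.3% after thinning to 3500 UMIs and 30.3% and 37.8% with 2 UMIs needed for detection, in the recipient and the donor. In the donor it was 57.6% at 0 Ccl5 UMIs and 52.6% at 10 or fewer. The count of 94 genes (of 4988 compared) was 34 after thinning (of 3377 compared), and 23 of the 34 were among the 94. At a minimum of 20 UMIs it was 368 of 8702 compared and at 500 it was 15 of 1184, so the number of genes entered also changed. At a log2 of 1 the count was 15 of 4988. Within a single low Ccl5 group, settings added once the data were seen, it was 16 of 2248 compared with Ly6c2 (11 of them among the 94), 10 of 874 with Ccr9 or Itgae (1 among the 94) and 17 of 1658 with none of these markers (5 among the 94). Fewer cells and so fewer genes entered these counts. With no UMI minimum, 35, 34 and 38 of the 94 were past the fold in both libraries inside these groups, in the same order. Their direction was kept in both libraries by 82, 62 and 79. In the Ccr9 or Itgae group these were 11 of the 21 genes higher in Igfbp4-only cells and 51 of the 73 higher in Dapl1-only cells. Doublets kept, a minimum of 1000 genes, a limit of 5% mitochondrial UMIs and leaving out the 105 shared barcodes moved no value beyond its interval. No paired analysis was possible because there was 1 library per group. After thinning Il2rb was short of the fold at -0.46 in the donor. The 3500 UMIs of a thinned cell limit what detection can show.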

Other observations

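Clusters of both libraries, built without the 2 genes and given by number and leading genes, placed Igfbp4 and Dapl1 differently. Igfbp4 was highest in cluster 3, led by Ccr9, Ramp1, Rgcc and Itgae, at 694 CPM in the recipient and 643 CPM in the donor. Its share was 17.6% of the recipient library and 4.08% of the donor library. Dapl1 stood there at 264 and 458 CPM. Cluster 4, led by Dyrk4, Themis2 and Serpinb1a with Ccr7 among its leading genes, had the largest Igfbp4 gap of the clusters with over 200 CPM in both libraries, at 530 and 262 CPM, a log2 ratio of 1.01. Dapl1 in that cluster stood at 277 and 348 CPM.

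In cluster 1, led by Igfbp4, Tgtp1, Slpi and Dapl1, Igfbp4 stood at 540 and 402 CPM and Dapl1 at 427 and 596 CPM. The next 3 clusters had Dapl1 levels of 280 CPM or more with Igfbp4 far below its level in cluster 1. In cluster 6, led by Myb, Izumo1r, Ctla4 and Cd200, Dapl1 stood at 374 and 595 CPM and Igfbp4 at 90.0 and 62.2 CPM. In cluster 12, led by histone and mitosis genes such as Hist1h2ap and Mki67, Dapl1 stood at 309 and 520 CPM and Igfbp4 at 136 and 65.9 CPM. In cluster 5, led by Zfp296, Gpr15 and Ly6c2, Dapl1 stood at 280 and 448 CPM and Igfbp4 at 103 and 55.5 CPM. These values are descriptions with 1 library per group.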
